A study of Mus musculus with 18 samples.

Results

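Distal accessible regions that closed after lipopolysaccharide (LPS) were followed in Il10-/- bone marrow-derived macrophages (BMDMs) treated with the BET inhibitor (+)-JQ1 or with IL-10. A distal peak was included when its mean over 3 unstimulated libraries was at least 3 CPM (the peak's count over the library's sum of counts in peaks, scaled to 1e6) and its mean over 3 LPS libraries was 0.4 or less of that. Of 157614 distal peaks, which lie outside the promoter windows, 1433 met this rule, out of 50847 distal peaks with at least 3 CPM in unstimulated cells (2.82%). With CPM scaled by the trimmed mean of M values (TMM), 508 met it, and without replicate 3 of each group 2726 did. The 1433 are called closed peaks here. They were chosen by their LPS and unstimulated levels, so the difference between those 2 groups is given as a description without a test. All 1433 were also past the call limits used below in that comparison, where 10.2% of all tested peaks were lower, and nothing is read from this.

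Assay for Transposase-Accessible Chromatin (ATAC)-seq was measured in 18 libraries, 3 in each of 6 groups. All cells carried the Il10 deletion on a C57BL/6J background and came from 3 male mice aged 12 weeks, with bone marrow cultured for 6 days in medium containing L929-conditioned medium. Cells then received 500 nM (+)-JQ1, 10 ng/mL IL-10 or no treatment for 12 hours and 50 ng/mL LPS or PBS for another 4 hours, so that every culture ended at 16 hours. The groups were Unstimulated, (+)-JQ1, IL-10, LPS, LPS + (+)-JQ1 and LPS + IL-10. Every group lacked the cells' own IL-10, so nothing here shows how the closed peaks behave in wild-type macrophages. Libraries held 12020526 to 25908198 counts in peaks. Promoter peaks of the macrophage genes Csf1r, Emr1, Itgam and Cd68 were open at 7.22 to 29.4 CPM in unstimulated cells. Markers of other cell types were not uniformly closed. The T cell genes Cd3e and Cd3g had no promoter peak, but Lck and Cd2 held 6.48 and 1.78 CPM, and the B cell genes Ms4a1, Pax5 and Cd79a held 1.31 to 3.82 CPM. Of the neutrophil genes Ly6g had none, and Mpo, S100a8 and Elane held 1.99, 10.9 and 27 CPM. The fibroblast genes Col1a2 and Dcn had none, and Col1a1 and Pdgfra held 13.2 and 25.7 CPM. The dendritic cell genes Xcr1, Flt3 and Zbtb46 held 1.11, 10.9 and 29 CPM. Accessible promoters are therefore a weak check of cell type, and the part of other cells in the results was not tested.

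Macrophages keep many enhancers open under the lineage factors PU.1, C/EBP and MAF, and an inflammatory stimulus opens further enhancers through AP-1, NF-kappaB and IRF factors while others lose accessibility. BET proteins read acetylated histones at active enhancers and promoters, and (+)-JQ1 displaces them. IL-10 acts through its receptor and STAT3 to restrain inflammatory gene expression. Enhancers are often annotated by the nearest gene, which need not be the gene they act on, and the names below are labels of position only: the gene a peak lies in, or the nearest start site of a coding gene where it lies in none. The Gpnmb, Gramd4 and Smyd3 members lie in introns of those genes, but their nearest start sites are those of 2410003K15Rik, Cerk and Kif26b.

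The middle 300 bases of 9 closed peaks are shown because these members lead the results below, and broad peaks, whose middle is arbitrary, were left out. Sequences are on the forward strand of mm9, and capitals mark matches to the motifs searched on both strands. Tmem218 had the lowest ratio of LPS to unstimulated cells of all members, and Gramd4, Igf1 and Slc7a13 followed it. The Ccdc152 intron near Sepp1, Stxbp4 and Ch25h separated (+)-JQ1 from IL-10. Satb1 closed with LPS in the presence of (+)-JQ1 and was not called with IL-10, and Cebpa is a lineage factor.
Tmem218 (chr9:37034022-37034321): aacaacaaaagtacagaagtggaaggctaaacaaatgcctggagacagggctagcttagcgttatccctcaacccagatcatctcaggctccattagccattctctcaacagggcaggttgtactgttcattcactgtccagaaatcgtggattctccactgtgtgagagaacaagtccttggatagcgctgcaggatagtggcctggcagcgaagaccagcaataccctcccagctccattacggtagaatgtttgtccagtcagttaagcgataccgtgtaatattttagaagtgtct
Gramd4 intron (chr15:85961214-85961513): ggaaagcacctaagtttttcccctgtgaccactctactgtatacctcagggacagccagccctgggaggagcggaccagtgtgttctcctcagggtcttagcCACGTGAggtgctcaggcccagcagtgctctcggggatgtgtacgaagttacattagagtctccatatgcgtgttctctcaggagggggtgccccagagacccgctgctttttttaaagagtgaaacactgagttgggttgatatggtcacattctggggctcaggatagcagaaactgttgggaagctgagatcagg
Igf1 intron (chr10:87382739-87383038): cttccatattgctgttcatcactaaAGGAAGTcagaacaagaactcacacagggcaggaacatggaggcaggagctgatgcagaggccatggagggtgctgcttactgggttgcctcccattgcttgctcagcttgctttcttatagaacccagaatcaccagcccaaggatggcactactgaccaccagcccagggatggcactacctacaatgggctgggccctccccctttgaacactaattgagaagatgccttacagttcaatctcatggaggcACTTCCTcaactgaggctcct
Slc7a13 intron (chr4:19765517-19765816): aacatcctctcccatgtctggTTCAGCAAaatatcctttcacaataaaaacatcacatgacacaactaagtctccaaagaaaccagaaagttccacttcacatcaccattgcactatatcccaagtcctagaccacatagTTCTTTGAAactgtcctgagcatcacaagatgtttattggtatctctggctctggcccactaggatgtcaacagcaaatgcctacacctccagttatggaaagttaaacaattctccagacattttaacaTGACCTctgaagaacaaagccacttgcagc
Ccdc152 intron near Sepp1 (chr15:3232911-3233210): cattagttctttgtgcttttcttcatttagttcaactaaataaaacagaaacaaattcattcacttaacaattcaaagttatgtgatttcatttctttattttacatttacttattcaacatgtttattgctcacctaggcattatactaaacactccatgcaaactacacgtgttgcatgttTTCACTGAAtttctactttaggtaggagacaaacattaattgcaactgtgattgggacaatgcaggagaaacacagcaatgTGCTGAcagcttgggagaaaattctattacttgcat
Stxbp4 intron (chr11:90419641-90419940): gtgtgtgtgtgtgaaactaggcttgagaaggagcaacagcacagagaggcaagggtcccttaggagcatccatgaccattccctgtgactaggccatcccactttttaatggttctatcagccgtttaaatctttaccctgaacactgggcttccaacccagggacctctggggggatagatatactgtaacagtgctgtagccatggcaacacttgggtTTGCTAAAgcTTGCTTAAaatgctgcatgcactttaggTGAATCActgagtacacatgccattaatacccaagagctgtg
Ch25h (chr19:34563460-34563759): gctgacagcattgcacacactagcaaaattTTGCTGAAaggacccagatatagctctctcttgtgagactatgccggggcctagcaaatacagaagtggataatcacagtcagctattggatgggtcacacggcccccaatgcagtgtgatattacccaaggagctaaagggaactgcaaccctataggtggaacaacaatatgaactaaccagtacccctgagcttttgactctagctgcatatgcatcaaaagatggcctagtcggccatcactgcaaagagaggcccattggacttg
Satb1 (chr17:51797866-51798165): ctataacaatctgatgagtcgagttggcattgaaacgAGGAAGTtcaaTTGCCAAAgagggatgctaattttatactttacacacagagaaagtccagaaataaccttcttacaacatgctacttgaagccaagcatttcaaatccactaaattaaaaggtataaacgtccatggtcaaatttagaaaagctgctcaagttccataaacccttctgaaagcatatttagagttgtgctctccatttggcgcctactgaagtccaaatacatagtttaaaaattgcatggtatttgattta
Cebpa (chr7:35883830-35884129): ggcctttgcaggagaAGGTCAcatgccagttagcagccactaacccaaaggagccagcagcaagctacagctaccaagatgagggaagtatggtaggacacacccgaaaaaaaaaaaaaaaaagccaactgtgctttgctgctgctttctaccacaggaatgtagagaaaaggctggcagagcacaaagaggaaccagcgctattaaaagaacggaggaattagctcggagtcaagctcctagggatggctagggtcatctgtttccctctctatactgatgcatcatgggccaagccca

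In the capitals, the Gramd4 intron held 1 E-box of the MITF and TFE kind, and the Igf1 intron held 2 PU.1/ETS matches. The Slc7a13 intron and Ch25h each held a MAF site that overlapped a C/EBP match, which share a run of capitals, and the Slc7a13 intron also held a STAT match and a nuclear receptor match. Stxbp4 held an AP-1 match and 2 C/EBP matches, the Sepp1 member a MAF site and a STAT match, Satb1 a PU.1/ETS and a C/EBP match, and Cebpa a nuclear receptor site. The Tmem218 window held none of the 13 motifs, which says only that these letters are not in this window.

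Over the middle 300 bases of all members, motifs of inflammatory factors were less frequent than in all distal peaks. Motifs of lineage factors were about as frequent as in all distal peaks. AP-1 was also less frequent than in other distal peaks with at least 3 CPM. The AP-1 motif TGANTCA was in 8.44% of members, 11.9% of those other peaks and 13.0% of all distal peaks. The mirror set, 2144 distal peaks with at least 3 CPM under LPS whose unstimulated level was 0.4 or less of it, had AP-1 in 16.3%. The IRF motif (GAAA, any pair of bases, GAAA) was in 3.21% of members, 4.57% of all distal peaks and 9.61% of the LPS-opened peaks. The kappaB motif GGGANTTCC was in 0.837%, 1.32% and 3.13% of the same sets. These were the motifs in which closed and opened peaks stood furthest apart relative to their level.

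Among lineage motifs, PU.1/ETS (AGGAAGT) was in 13.5% of members, 13.8% of all distal peaks and 9.84% of LPS-opened peaks. The MAF site TGCTGA was in 25.5% of members and 24.3% of all distal peaks. C/EBP (TTGCNNAA) was in 14.9% and 13.1%, and the nuclear receptor site AGGTCA in 21.1% and 19.4%. The E-box TCACGTG, read by MITF and TFE factors of the lysosomal programme, was rare, at 2.44% of members and 1.59% of all distal peaks. RUNX (TGTGGTT) was in 8.37% and 8.77%, STAT (TTCNNNGAA) in 9.07% and 9.03%, and MEF2 in 5.23% and 5.16%. The CTCF core AGGGGGC was in 2.79% of members and 4.47% of all distal peaks, and SP/KLF (GGGCGGG) in 1.74% and 2.49%. Against the other distal peaks with at least 3 CPM, members had the higher share for 6 of the 13 motifs, and for 4 in the middle 500 bases. These shares are descriptions without a test, and the middle of a wide peak is an arbitrary place within it.

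**Figure D1:**
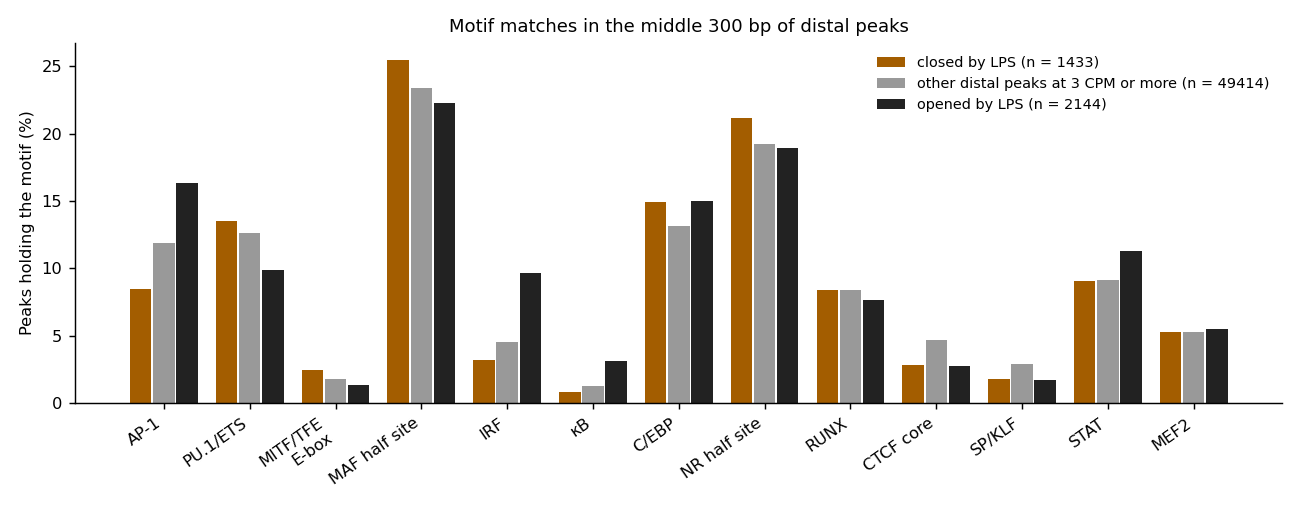
Percent of windows (middle 300 bp) that hold each of 13 motifs, as bars for the 1433 closed peaks, the 49414 other distal peaks with at least 3 CPM and the 2144 peaks opened by LPS. AP-1, IRF and kappaB are least frequent in the closed peaks and most frequent in the opened ones.

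Closed peaks lay farther from the start sites of coding genes than comparable peaks, and more often had a closed peak nearby. Their midpoints fell in introns in 47.4% and between genes in 44.7% of cases, with 3.28% in coding exons and 4.68% in UTRs. The median distance to the nearest start site of a coding gene was 27704 bp, against 17673 bp for the other distal peaks with at least 3 CPM, and 16.8% of members against 8.62% lay over 100 kb away. Another member lay within 25 kb of 38.8% of members, whereas 5.8% of the other peaks had a member that near. An LPS-opened peak lay within 25 kb of 2 members (0.140%). For the other peaks the share was 8.46%, but these include LPS-opened peaks, each counted as its own neighbour. The 2 shares are therefore not comparable. The 1433 members had 990 nearest genes, of which 45 were nearest to 4 or more members. Igf1, a growth factor gene of tissue macrophages, was nearest to 18, the most of any gene. Median peak width was 1551 bp (503 to 12837 bp), and neighbouring members may be pieces of 1 broad region, so they are not independent.

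The level of the closed peaks was graded over the 6 groups. Choosing peaks high in these unstimulated and low in these LPS libraries favours values in between for the other groups, so this order is a description. The median over members was 4.84 ± 0.306 CPM (mean ± SD of 3 library medians) in unstimulated cells and 1.67 ± 0.0982 under LPS. It was 2.20 ± 0.192 in LPS + (+)-JQ1 and 2.15 ± 0.159 in LPS + IL-10, both below every library median without LPS. Without LPS the median was 3.37 ± 0.124 with (+)-JQ1 and 3.69 ± 0.0686 with IL-10. Over all distal peaks with at least 3 CPM the medians ran from 5.05 to 5.92 CPM across the 6 groups. The summed level of all members was 9747 to 10188 CPM in the unstimulated libraries and 3043 to 3400 in the LPS libraries. It was 3799 to 4791 in LPS + (+)-JQ1 and 4224 to 4923 in LPS + IL-10, above every LPS library and below every library without LPS. In LPS + (+)-JQ1, 2 members had a mean at or above their unstimulated mean, and in LPS + IL-10, 17 did. At the limits of the rule, the 3 members just inside the ratio had values of 0.399848 to 0.39995 and the 3 peaks just outside had 0.400294 to 0.40032. The levels of the 3 members just inside were 3.00034 to 3.0032 CPM, and those of the 3 peaks just outside began at 2.99554 CPM and were all below 3 CPM before rounding.

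**Figure D2:**
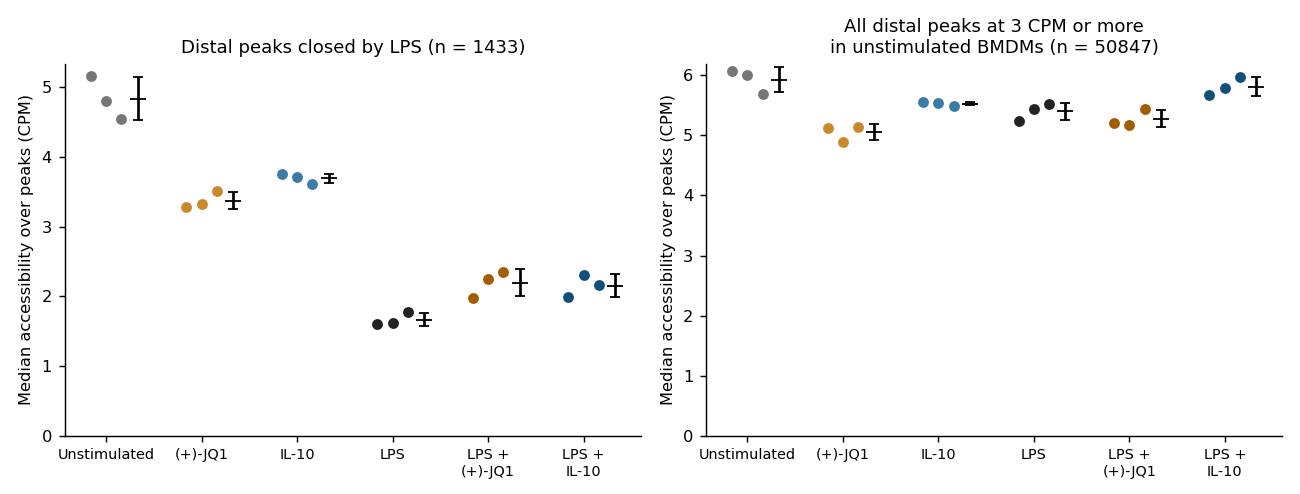
Median accessibility (CPM) in each of the 18 libraries, by group, over the 1433 closed peaks (left) and over all 50847 distal peaks with at least 3 CPM (right); points are libraries and bars the mean ± SD of 3. On the left, the 3 LPS libraries are lowest, both LPS + treatment groups sit slightly above them, and (+)-JQ1 and IL-10 without LPS sit between these and the unstimulated libraries. The unstimulated and LPS libraries shown also chose these peaks, which favours values in between for the other groups.

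Because unstimulated and LPS libraries chose the members, the choice was repeated on 2 replicate numbers and read in the third, taken as another mouse. In the left-out mouse the median log2 ratio of LPS to unstimulated was -1.21 ± 0.27 (SD, n = 3), against -0.16 ± 0.05 over all distal peaks with at least 3 CPM. LPS + (+)-JQ1 over LPS was 0.24 ± 0.07 and LPS + IL-10 over LPS was 0.25 ± 0.12. Relative to all distal peaks of that level these were 0.22 ± 0.10 and 0.14 ± 0.13, and in 1 of the 3 mice the second was 0.02. (+)-JQ1 over unstimulated was -0.38 ± 0.10 and IL-10 over unstimulated -0.28 ± 0.04. With TMM scaling both moved close to 0, at -0.11 ± 0.10 and -0.07 ± 0.15. Relative to all distal peaks of that level they were -0.21 ± 0.03 and -0.22 ± 0.02, and -0.24 ± 0.01 and -0.24 ± 0.03 under TMM. Closed peaks were thus lower than comparable peaks after either treatment alone, in every left-out mouse and under both scalings.

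Whether LPS also closed these peaks in the presence of a treatment was tested with libraries that had no part in their choice. LPS + (+)-JQ1 was compared with (+)-JQ1, and LPS + IL-10 with IL-10, by edgeR's quasi-likelihood test over 194230 peaks with Benjamini-Hochberg adjustment. A call needed an adjusted p under 0.05 and an absolute log2 fold-change above 0.5. With (+)-JQ1, LPS lowered 708 members (49.4%) and raised 0, where 3.58% of all tested peaks were lower and 5.7% higher. Among distal peaks with at least 3 CPM, 8.47% were lower. At an unadjusted p under 0.05 (edgeR), 942 of 1433 members and 17634 of 50847 distal peaks with at least 3 CPM differed in either direction. With IL-10, LPS lowered 889 members (62%) and raised 3, where 6.47% of all tested peaks were lower and 8.93% higher, and 12.5% of distal peaks with at least 3 CPM were lower. The median log2 fold-changes of all 1433 members were -0.68 with (+)-JQ1 and -0.81 with IL-10, while those of the other distal peaks with at least 3 CPM were -0.01 and -0.02.

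Of the members, 584 were called lower in both comparisons, 124 with (+)-JQ1 and not with IL-10, 305 with IL-10 and not with (+)-JQ1, and 417 in neither direction in either. The 3 members raised by LPS with IL-10 lay in introns of Elmo1, Ggta1 and Megf11, at 1.01, 0.75 and 0.91 on the log2 scale, and are named because they are so few. Being called in 1 comparison and not in the other does not show a difference between them, which is tested below. The fold-change was below 0 in 1279 members (89.3%) in both comparisons and in 24 in neither. The called members had a higher unstimulated level than the members as a whole. The median was 6.51 CPM for those lowered with (+)-JQ1 and 5.64 for those lowered with IL-10, against 4.77 for all members, called or not.

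The libraries were sequenced on 2 lanes, and replicate 1 was on 1 lane and replicate 3 on the other in every group. Within replicate 1 the median log2 ratio of LPS + (+)-JQ1 to (+)-JQ1 was -0.83, and within replicate 3 it was -0.54. Replicate 2, whose libraries with and without LPS were on different lanes, gave -0.56. For LPS + IL-10 over IL-10 the values were -0.88, -0.74 and -0.65 in the same order. The median was below 0 within each lane.

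**Figure D3:**
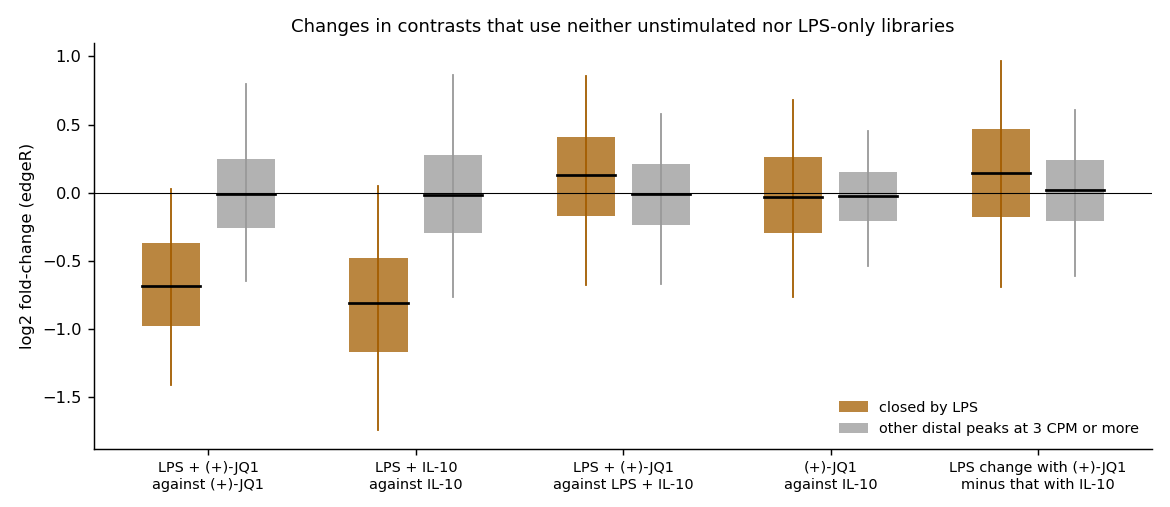
Log2 fold-changes (edgeR, TMM) of the 1433 closed peaks and of the other distal peaks with at least 3 CPM in 5 comparisons that used no library of the rule; boxes are quartiles with the median and lines run from the 5th to the 95th percentile. Closed peaks are shifted to -0.68 and -0.81 in the LPS comparisons and lie near 0 in those between treatments.

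The members with the lowest ratio of LPS to unstimulated cells kept a strong LPS change with either treatment in most cases. Near Tmem218 (chr9:37033859-37034484, ratio 0.0793), a gene for a membrane protein of cilia, unstimulated libraries held 5.41, 4.43 and 3.81 CPM and LPS libraries 0.303, 0.245 and 0.534 CPM. With (+)-JQ1 it held 1.78, 2.39 and 3.02 CPM without LPS and 0.661, 0.768 and 0.579 CPM with LPS. All LPS libraries lay below all libraries without it, and the log2 fold-change was -1.90 ± 0.33 (SE; adjusted p = 4.38e-06, edgeR). With IL-10 it was -2.86 ± 0.32 (adjusted p = 2.18e-12, edgeR), from 4.67, 4.05 and 3.25 CPM to 0.249, 1.18 and 0.337 CPM. In the Gramd4 intron (chr15:85960827-85961900, ratio 0.102), unstimulated libraries held 5.82, 11.6 and 8.13 CPM and LPS libraries 0.909, 0.637 and 1.07 CPM. Its fold-changes were -2.09 ± 0.27 with (+)-JQ1 and -2.61 ± 0.24 with IL-10 (adjusted p = 1.23e-09 and 3.63e-16, edgeR). This member was lower in (+)-JQ1, at 3.39, 3.52 and 3.86 CPM, than in IL-10, at 5.94, 8.10 and 7.69 CPM (log2 -0.94, adjusted p = 0.0025, edgeR), a call that was lost without replicate 2 or 3.

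The Igf1 intron member (chr10:87382457-87383321, ratio 0.112) was called lower with (+)-JQ1 and not with IL-10. It held 4.24, 2.66 and 2.73 CPM in unstimulated cells, and was already low after treatment alone, at 1.5, 1.19 and 1.04 CPM with (+)-JQ1 and 0.828, 0.820 and 0.595 CPM with IL-10. Under LPS + IL-10 it held 0.497, 1.77 and 0.675 CPM, overlapping IL-10 alone (log2 0.31, adjusted p = 0.646, edgeR). With (+)-JQ1 its fold-change was -1.18 ± 0.40 (adjusted p = 0.0424, edgeR), which was not called with DESeq2, with total-count scaling or without replicate 1 or 3. The difference between its 2 LPS changes, by the interaction test described below, was -1.49 and was not called, and it rests on low levels. In an intron of Slc7a13, an amino acid transporter gene, the member (ratio 0.112) held 3.11, 3.70 and 3.56 CPM with (+)-JQ1 and 0.955, 1.02 and 1.12 CPM with LPS + (+)-JQ1. Its fold-changes were -1.77 ± 0.28 and -1.87 ± 0.28 with (+)-JQ1 and IL-10 (adjusted p = 6.35e-07 and 1.16e-07, edgeR). Gpnmb encodes a glycoprotein of lysosome-related organelles. The member in its intron (chr6:49016186-49019726, ratio 0.114) held 14.1, 17.5 and 20.4 CPM in unstimulated cells and 1.56, 1.91 and 2.43 CPM under LPS, and was called lower with both treatments (-1.69 and -2.17). The member near the myeloid receptor gene Cd300lb (chr11:114780520-114783498, ratio 0.114) held 23.5, 24.4 and 26.8 CPM unstimulated and 1.73, 3.14 and 3.62 CPM under LPS, with fold-changes of -1.71 and -1.52.

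The most accessible members lay at Plin2, Gpnmb, Cdk18, Gramd4, Man1c1 and in the Cdh23 intron near Psap, the last described below. The highest lay in Plin2, which encodes a coat protein of lipid droplets (chr4:86289929-86301156), with 43.6, 56.5 and 62.4 CPM in unstimulated cells and 15.2, 16.7 and 20.6 CPM under LPS. LPS + (+)-JQ1 brought it to 9.32, 12.2 and 13.9 CPM, below every LPS library, and LPS + IL-10 left it at 31.7, 27 and 26.7 CPM. It was lower in LPS + (+)-JQ1 than in (+)-JQ1 (log2 -1.26 ± 0.15, adjusted p = 7.98e-11, edgeR), while LPS + IL-10 over IL-10 was -0.40, short of the fold limit. A broad Gpnmb member (chr6:49004736-49016166) held 48.4, 47.6 and 56.3 CPM unstimulated and 11.1, 10.6 and 14.9 CPM under LPS, with fold-changes of -1.30 and -1.58 with (+)-JQ1 and IL-10. Near Cdk18, a kinase gene, the levels were 49.5, 47.8 and 51.2 CPM and 13.3, 15.1 and 13.5 CPM, with -0.75 and -0.66. A second Gramd4 member (chr15:85962378-85967548) held 48.9, 44.3 and 52.6 CPM and 7.58, 7.84 and 9.96 CPM, with -1.78 and -2.05. Near Man1c1, a mannosidase gene of the Golgi, the fold-changes were -0.72 and -1.01. All of these except the Plin2 value with IL-10 passed the test, with adjusted p from 2.22e-23 to 0.000207 (edgeR).

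Between the treatments under LPS, members were called in both directions, as were comparable peaks. LPS + (+)-JQ1 was higher than LPS + IL-10 in 127 members and lower in 89, where 3.43% and 4.67% of all tested peaks were called. As shares these were 8.86% and 6.21%, beside 5.44% and 7.71% of distal peaks with at least 3 CPM. With total-count scaling in place of TMM the split was 100 against 110. An unadjusted p under 0.05 (edgeR) was met by 424 of 1433 members and 15007 of 50847 distal peaks with at least 3 CPM. The median log2 fold-change of all members was 0.13, and within mice the median ratio was -0.03, -0.04 and 0.13, where other distal peaks gave -0.07, -0.12 and -0.08. Without replicate 2 the calls numbered 56 and 42, without replicate 3 the higher ones numbered 66, and without replicate 1 the lower ones numbered 59.

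The 4 members with the largest values in favour of (+)-JQ1 lay near Ch25h, Mylk4, Mylip and Psap. Ch25h encodes cholesterol 25-hydroxylase, and its member (chr19:34563274-34563946) held 2.28, 2.56 and 3.32 CPM in LPS + (+)-JQ1 and 0.746, 1.01 and 0.771 CPM in LPS + IL-10. The groups did not overlap (log2 1.79 ± 0.30, adjusted p = 4.93e-06, edgeR), and without LPS the member was also higher with (+)-JQ1, at 3.34, 3.26 and 2.57 CPM, than with IL-10, at 1.56, 1.78 and 1.33 CPM. Mylip encodes a ubiquitin ligase that degrades the LDL receptor, and is a target of the liver X receptors (LXR). Its member (chr13:45506962-45513857) held 20.1, 19.8 and 21.8 CPM in LPS + (+)-JQ1 and 6.86, 8.10 and 7.23 CPM in LPS + IL-10 (1.55 ± 0.14, adjusted p = 1.38e-15, edgeR). LPS alone gave 9.05, 9.11 and 7.83 CPM there. In a Cdh23 intron near Psap, which encodes the precursor of the lysosomal saposins, the narrow member (chr10:59774762-59775767) held 1.91, 3.23 and 3.98 against 0.994, 1.48 and 1.20 CPM (1.44 ± 0.27, adjusted p = 3.5e-05, edgeR). Near the kinase gene Mylk4 the values were 1.54, 1.95 and 1.43 against 0.249, 0.828 and 0.675 CPM (1.58 ± 0.35, adjusted p = 0.000658, edgeR).

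In the other direction, the 4 lowest members were above every LPS library with LPS + IL-10. The member in an intron of Ggta1, a galactosyltransferase gene (chr2:35282695-35285138), held 1.54, 1.54 and 2.89 CPM in LPS + (+)-JQ1 and 8.05, 7.81 and 7.56 CPM in LPS + IL-10, above its unstimulated 5.91, 5.00 and 4.78 CPM. The log2 fold-change was -1.84 ± 0.21 (adjusted p = 2.32e-11, edgeR). Near Gm826 the values were 2.13, 3.28 and 2.66 against 9.65, 9.64 and 9.35 CPM, also above the unstimulated libraries (-1.73 ± 0.20, adjusted p = 1.51e-11, edgeR). Near Zc3h12d, which encodes an RNase that degrades cytokine transcripts, the values were 2.57, 2.36 and 3.05 against 8.80, 10.8 and 8.09 CPM (-1.70 ± 0.19, adjusted p = 1.29e-11, edgeR). Near Nfam1, an activating immune receptor gene, they were 4.48, 4.30 and 6.18 against 17.3, 16.6 and 14.7 CPM (-1.60 ± 0.16, adjusted p = 4.01e-14, edgeR). These 4 calls held in each of the 11 alternative fits.

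Without LPS, (+)-JQ1 was higher than IL-10 in 63 members and lower in 90, where 1.02% and 1.47% of all tested peaks were called. These were 4.4% and 6.28% of members, beside 2.13% and 3.25% of distal peaks with at least 3 CPM. An unadjusted p under 0.05 (edgeR) was met by 433 of 1433 members and 10397 of 50847 distal peaks with at least 3 CPM. The median log2 fold-change was -0.03, as in the other distal peaks with at least 3 CPM, and within mice it was -0.09, -0.17 and -0.04. Without replicate 2 the calls numbered 16 and 36, and without replicate 3 they numbered 29 and 57. The Ccdc152 intron member near Sepp1, the selenoprotein P gene (chr15:3232293-3233828), was furthest above IL-10. It held 22.1, 30.6 and 28.6 CPM with (+)-JQ1 against 8.76, 8.58 and 11.9 CPM with IL-10 (1.55 ± 0.16, adjusted p = 1.2e-12, edgeR), and 9.15, 9.30 and 12.1 CPM in unstimulated cells. LPS then brought it to 1.47, 3.79 and 2.97 CPM in the presence of (+)-JQ1, a fold-change of -3.30 ± 0.18, which was the lowest of all members in that comparison. In Clvs1, a lipid-binding protein gene, the member held 3.97, 4.58 and 4.5 against 2.04, 1.35 and 1.51 CPM (1.49 ± 0.26, adjusted p = 3.83e-05, edgeR). In Stxbp4, a syntaxin-binding protein gene, it held 12.8, 13.0 and 9.60 against 4.43, 4.44 and 5.36 CPM (1.39 ± 0.17, adjusted p = 3.97e-09, edgeR).

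Among the members lower with (+)-JQ1 than with IL-10, the one near Zc3h12d led here too. It held 2.70, 2.01 and 2.72 CPM with (+)-JQ1 and 9.35, 10.7 and 9.61 CPM with IL-10 (-1.91 ± 0.19, adjusted p = 6.48e-13, edgeR). Neither group changed further with LPS, with fold-changes of 0.06 and -0.15 that were not called. Near Lair1, an inhibitory collagen receptor gene, the values were 1.84, 0.439 and 0.792 against 4.33, 3.23 and 4.49 CPM (-1.90 ± 0.30, adjusted p = 5.65e-06, edgeR). Near Slc39a12, a zinc transporter gene, they were 1.84, 2.20 and 2.57 against 8.37, 6.17 and 10.8 CPM (-1.86 ± 0.22, adjusted p = 8.47e-10, edgeR). There the IL-10 libraries also lay above the unstimulated 4.66, 4.17 and 3.98 CPM.

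Contrasts that share libraries with the rule were read as descriptions, because choosing peaks that are low under LPS favours values above LPS elsewhere. LPS + (+)-JQ1 over LPS had a median log2 fold-change of 0.42, with 259 members above and 2 below the call limits, where 1.74% and 3.48% of all tested peaks were called. LPS + IL-10 over LPS had a median of 0.30, with 286 above and 10 below, beside 4.26% and 4.52%. For (+)-JQ1 over unstimulated the median was -0.30, with 98 above and 305 below, beside 7.85% and 3.15%. For IL-10 over unstimulated it was -0.25, with 80 above and 237 below, beside 5.16% and 3.5%. The left-out mice above give these contrasts without that share.

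Whether the LPS change itself differed between the treatments was tested by the interaction of the 4 groups. The LPS change was higher with (+)-JQ1 in 26 members and lower in 12, where 0.424% and 0.706% of all tested peaks were called. These were 1.81% and 0.837% of members, beside 0.985% and 1.3% of distal peaks with at least 3 CPM. The lower calls were thus no more frequent among members than among comparable peaks. An unadjusted p under 0.05 (edgeR) was met by 299 of 1433 members and 7361 of 50847 distal peaks with at least 3 CPM. Leaving out replicate 1, 2 or 3 from every group gave 21, 9 and 16 calls in all. Of the 26, the member with the largest value lay downstream of Igf1 (chr10:87403708-87404546). It held 0.978, 0.753 and 0.891 CPM in (+)-JQ1 and 0.587, 2.10 and 1.08 CPM in LPS + (+)-JQ1, while IL-10 libraries fell from 1.51, 2.36 and 2.38 to 0.597, 1.36 and 0.385 CPM. The interaction was 2.02 ± 0.50 (adjusted p = 0.0184, edgeR), was lost without replicate 2 or 3, and rests on low levels. Near Cbx7, a Polycomb chromobox gene (chr15:79817939-79823400), the levels were higher. With (+)-JQ1 it held 12.1, 10.6 and 13.3 CPM without LPS and 18.4, 16.1 and 13.4 CPM with LPS, which was not called (0.36, adjusted p = 0.0998, edgeR). With IL-10, LPS lowered it from 17.8, 16.1 and 16.4 CPM to 7.06, 6.51 and 5.93 CPM. The interaction of 1.76 ± 0.21 (adjusted p = 1.61e-09, edgeR) held in each of the 11 alternatives. The same direction was called at the broad Cdh23 member near Psap (1.27, adjusted p = 8.21e-05, edgeR) and at the Mylip member (0.95, adjusted p = 0.00157, edgeR), both lost without replicate 2.

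Of the 12 members with the opposite difference, the Smyd3 intron (chr1:180974178-180977855) had the largest value. Smyd3 encodes a methyltransferase. (+)-JQ1 libraries held 20.6, 25.4 and 19.9 CPM without LPS and 9.10, 12.6 and 9.73 CPM with it, whereas IL-10 libraries held 18.2, 17.9 and 16.7 CPM without and 23.5, 19.6 and 19.2 CPM with LPS. The interaction was -1.30 ± 0.20 (adjusted p = 6.74e-06, edgeR) and held in each of the 11 alternatives. Near Satb1, a chromatin organiser gene (chr17:51797420-51798612), (+)-JQ1 libraries went from 5.87, 5.96 and 5.69 to 1.91, 2.36 and 3.32 CPM and IL-10 libraries from 4.67, 4.48 and 3.57 to 3.73, 4.20 and 4.29 CPM. Its interaction of -1.11 ± 0.28 (adjusted p = 0.0213, edgeR) was lost without any 1 of the replicates. The Plin2 member also differed (-0.86, adjusted p = 0.0135, edgeR), a call lost without replicate 1 or 2.

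**Figure D4:**
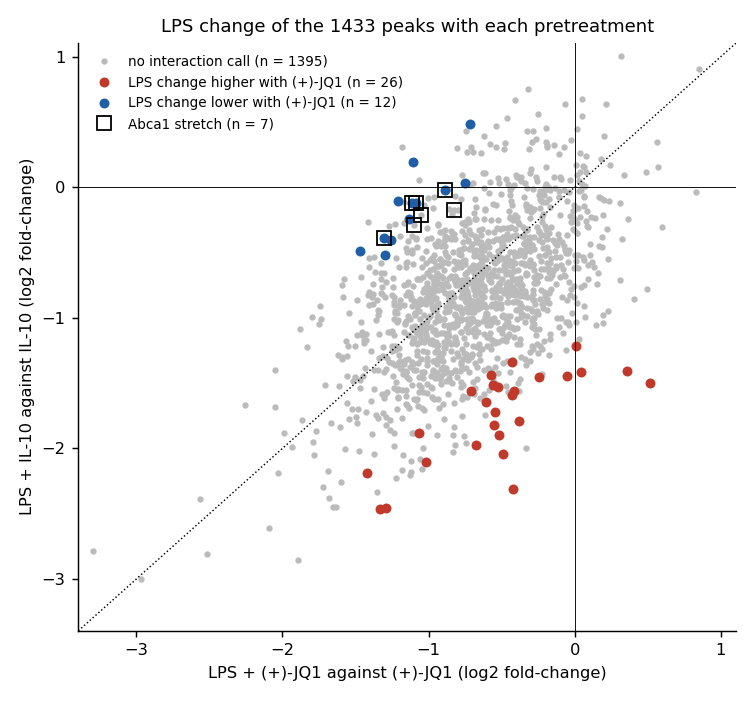
LPS change (log2 fold-change) with (+)-JQ1 on the horizontal and with IL-10 on the vertical axis for each of the 1433 closed peaks; 26 members with a higher and 12 with a lower LPS change with (+)-JQ1 by the interaction test are marked in colour, and squares mark the 7 members at Abca1. Most members are below 0 on both axes (1279), and the Abca1 squares lie well below 0 on the (+)-JQ1 axis and near 0 on the IL-10 axis.

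Members were also counted within 25 kb of the start sites of 10 gene lists, beside the 2.82% of distal peaks with at least 3 CPM that were members. The lists were chosen with earlier results of these data known, so the shares are descriptions without a test. The list of lysosomal and phagocytic genes, which also held the lipid droplet gene Plin2, had 14 members among 138 such peaks (10.1%). They lay near Plin2, Gpnmb, Ctsa, Ctsb, Ctsd, Ctsl, Hexa and Atp6v0d2. Of these 14, LPS lowered 11 with (+)-JQ1 and 10 with IL-10 and raised 0. Lipid and LXR genes had 11 of 118 (9.32%), near Apoe, Apoc2, Pltp, Fabp5, Mylip, Rxra, Trem2 and Abcg1, of which 8 and 9 were lowered. Genes of alternative activation had 6 of 77 (7.79%), 4 of them at Igf1 and the others near Retnla and Chi3l3, with 3 and 4 lowered. TGF-beta and SMAD genes had 6 of 90 (6.67%), of which 1 was lowered with (+)-JQ1 and 6 with IL-10, with 0 interaction calls. Chemokine, cytokine and purine receptor genes had 6 of 145 (4.14%), 4 of them the same Tgfbr1 members, with 0 and 4 lowered and 0 interaction calls. Lineage factors and receptors had 4 of 167 (2.40%), some of them near Cebpa, with 3 lowered in each. Cell cycle genes had 1 of 73, near Rb1, lowered in both (-0.94 and -0.90). There were 0 members among 114 peaks near inflammatory genes induced by LPS, among 103 near genes of the IL-10 and STAT3 response, and among 140 near genes of actin, adhesion and migration. The Pltp and Ctsa members are the same 3 peaks.

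Apolipoprotein genes had the most accessible LXR-list member, nearest to Apoc1 (chr7:20278524-20282743). It held 27.4, 41.0 and 45.9 CPM in unstimulated cells, 46.7, 57.2 and 59.2 CPM with (+)-JQ1 and 46.8, 49.7 and 51.7 CPM with IL-10. LPS gave 8.05, 7.40 and 8.72 CPM, LPS + (+)-JQ1 11.7, 15.3 and 13.4 CPM, and LPS + IL-10 15.7, 16.7 and 15.2 CPM. Both LPS changes were called, at -2.05 ± 0.15 with (+)-JQ1 and -1.68 ± 0.15 with IL-10 (adjusted p = 2.8e-21 and 6.35e-17, edgeR). In Pltp, the phospholipid transfer protein gene, the broad member (chr2:164669109-164681945) held 28.1, 26.6 and 28.6 CPM with (+)-JQ1 and 18.1, 17.5 and 21.2 CPM with LPS + (+)-JQ1 (-0.59, adjusted p = 0.000695, edgeR, lost without replicate 2). With IL-10 it held 40.6, 41.8 and 41.5 CPM and, with LPS, 32.2, 35.5 and 33 CPM (-0.34, under the fold limit).

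Cebpa encodes a lineage factor of myeloid cells. Near Cebpa (chr7:35883547-35884413) the member held 14.7, 14.5 and 16.3 CPM unstimulated and 5.76, 4.31 and 6.05 CPM under LPS, with fold-changes of -0.90 with (+)-JQ1 and -1.37 with IL-10 (adjusted p = 3.94e-06 and 5.6e-12, edgeR). In Smad3, which encodes a signal transducer of TGF-beta, an intronic member (chr9:63500221-63504706) held 12.2, 12.2 and 8.53 CPM unstimulated and 3.68, 4.26 and 3.44 CPM under LPS, with -0.23 with (+)-JQ1 (not called) and -0.56 with IL-10 (adjusted p = 0.00883, edgeR, lost without replicate 1). The member of the receptor list near Ifngr1, closest to Il22ra2, was called in neither comparison (-0.19 and -0.46).

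Some members lay together in stretches of at most 100 kb, and the 4 stretches with the most members were at Igf1, Wwp1, Inpp5d and Fnip2. Each stretch ran from member to member, so the share of members within it depends on how it was drawn. Among distal peaks with at least 3 CPM grouped by nearest gene, members were 18 of 32 for Igf1, 6 of 20 for Inpp5d and 5 of 14 for Fnip2. They were 6 of 12 for Wwp1 and 7 of 7 for Gm12353. At Igf1 (chr10:87328859-87404546), 18 of 19 distal peaks with at least 3 CPM were members. Their summed level was 159, 143 and 157 CPM in unstimulated libraries, 83.7, 78.2 and 76.1 with (+)-JQ1, 99.5, 98.9 and 96.6 with IL-10 and 35.4, 50.5 and 49.2 with LPS. It was 45.7, 58.4 and 55.9 in LPS + (+)-JQ1 and 36.8, 67.4 and 46.0 in LPS + IL-10, both overlapping LPS. LPS lowered 8 of the 18 with (+)-JQ1 and 14 with IL-10, and the interaction was called in 1. At Wwp1, a ubiquitin ligase gene, and its neighbours Gm12353 and Fam82b (chr4:19525128-19622780), 13 of 16 peaks were members, with 73.8 CPM in unstimulated cells, 38.2 and 49.4 with (+)-JQ1 and IL-10, 20.6 with LPS and 23.8 in each LPS + treatment group. LPS lowered 4 of them with (+)-JQ1 and 11 with IL-10, and the interaction was called in 0.

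At Inpp5d, which encodes the inositol phosphatase SHIP-1 (chr1:89575748-89627595), 9 of 9 peaks were members. Their sum was 61.3 CPM in unstimulated cells, 36.9 with (+)-JQ1, 54.9 with IL-10 and 17.2 with LPS, and 21.5 and 30.9 CPM in LPS + (+)-JQ1 and LPS + IL-10. LPS lowered 6 with (+)-JQ1 and 7 with IL-10, and 3 were lower in LPS + (+)-JQ1 than in LPS + IL-10. The interaction was called in 0 of 9. At Fnip2, a folliculin-interacting protein gene (chr3:79242017-79293631), 8 of 9 peaks were members. LPS + IL-10 held 60.4, 65.4 and 65.0 CPM in sum and LPS + (+)-JQ1 35.2, 38.8 and 42.5 CPM, against 28.9, 25.9 and 35.4 CPM with LPS. Without LPS the sum was also lower with (+)-JQ1, at 65.5 CPM, than with IL-10, at 87.5 CPM. LPS lowered 6 of 8 with (+)-JQ1 and 4 with IL-10, and 5 were lower in LPS + (+)-JQ1 than in LPS + IL-10. The interaction was called in 0 of 8, so a difference in the LPS change was not shown there.

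The stretch at Abca1 was chosen after its values were seen. Abca1 encodes the transporter that exports cholesterol to apolipoproteins and is a target of LXR. Of 12 distal peaks with at least 3 CPM in the stretch that overlaps Abca1 and Nipsnap3b (chr4:53034873-53115233), 7 were members. Their sum was 104.7, 104.0 and 106.0 CPM in unstimulated cells, 103, 103 and 116.9 with (+)-JQ1 and 117, 116.5 and 111.6 with IL-10. LPS gave 28.6, 44.8 and 36 CPM and LPS + (+)-JQ1 31.7, 59.1 and 61.8 CPM, whereas LPS + IL-10 held 100.6, 113.7 and 92.1 CPM, close to the level without LPS. With (+)-JQ1, LPS lowered 7 of 7 members (median log2 -1.09), and with IL-10, 0 of 7 (median -0.18, from -0.39 to -0.02). LPS + (+)-JQ1 was lower than LPS + IL-10 in 7 of 7 (median -0.88). The interaction was called in 4 of 7, and in 2 with DESeq2, 1 without replicate 1, 0 without replicate 2 and 3 without replicate 3, while the other counts of 7 went no lower than 6.

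The Tgfbr1 stretch was also chosen after its values were seen. Tgfbr1 encodes a TGF-beta receptor, and 7 of 10 peaks there (chr4:47402195-47439033) were members. Their sum was 63.6, 62.8 and 70.9 CPM in unstimulated cells and was lower after either treatment alone, at 27.3, 24.2 and 28.9 with (+)-JQ1 and 33.4, 35 and 29.7 with IL-10. LPS + (+)-JQ1 held 19.3, 21.6 and 23.2 CPM and LPS + IL-10 13.9, 16.3 and 13.8 CPM, against 15.2, 19.8 and 16.9 CPM with LPS. LPS lowered 1 of 7 with (+)-JQ1 and 7 of 7 with IL-10, and 4 were higher in LPS + (+)-JQ1 than in LPS + IL-10, or 2, 1 and 1 without replicate 1, 2 or 3. The interaction was called in 1 of 7, a call lost without replicate 2 or 3. At Sepp1 (chr15:3182351-3237509), likewise chosen after its values were seen, the 6 members were highest with (+)-JQ1 alone. Their sum was 66.7, 74.5 and 74.7 CPM with (+)-JQ1 against 39.9, 38.3 and 43.4 with IL-10 and 34.4, 38.3 and 44.0 in unstimulated cells. In 5 of 6, (+)-JQ1 was higher than IL-10 by the test. LPS lowered 6 of 6 with either treatment, to 9.84, 19.5 and 15.4 CPM and 10.6, 12.7 and 10.9 CPM.

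**Figure D5:**
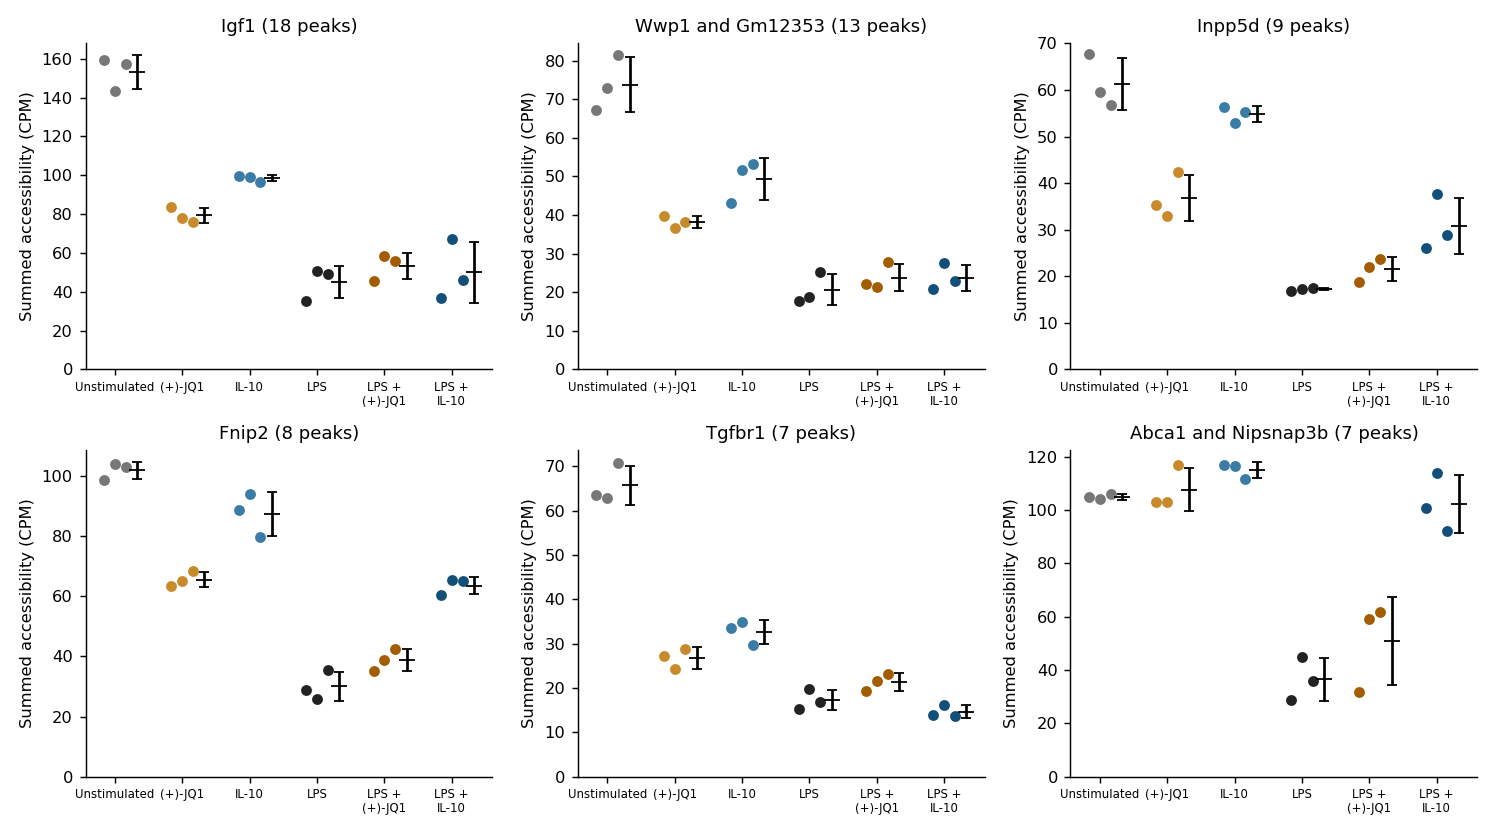
Summed CPM of the closed peaks in 6 stretches (Igf1, Wwp1, Inpp5d, Fnip2, Tgfbr1 and Abca1) by group; points are libraries and bars give the mean ± SD of 3. At Abca1 the LPS + IL-10 libraries (92.1 to 113.7 CPM) sit with the groups without LPS, whereas at Igf1 both LPS + treatment groups overlap LPS.

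Peaks around the members moved with them to a lesser extent, in libraries with no part in the rule. Of 556 distal peaks with at least 3 CPM that lay within 5 kb of a member without being one, LPS lowered 25% with (+)-JQ1 and 36% with IL-10 (median log2 -0.35 and -0.42). At 5 to 25 kb it was 16.6% and 23.6% of 2308 peaks, at 25 to 100 kb 10.3% and 13.7% of 5553, and beyond 100 kb 6.12% and 9.62% of 40997, where the medians were 0.02 and 0.01. Promoter peaks of the same genes were also lowered more often than promoter peaks in general. Of 1417 promoter peaks of the members' nearest genes, 8.68% were lowered with (+)-JQ1 and 12.1% with IL-10, beside 2.96% and 5.56% of all 36666 promoter peaks. For the 74 promoter peaks of genes nearest to 4 or more members these were 20.3% and 23.0%. The single promoter levels that follow are descriptions from the unstimulated and LPS libraries, which did have a part in the rule. The Igf1 promoter peak (chr10:87321065-87326919) held 28.4 CPM in unstimulated cells and 23.3 with LPS. The 18 members at Igf1 went from a sum of 153 to 45.0 CPM, but they were chosen for this fall and the promoter was not. The Apoe promoter peak went from 17.9 to 6.02 CPM, and that of Abca1 was 30.2 and 36.4 CPM.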

How the data were processed

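ATAC-seq counts were deposited by the authors as raw read counts per peak for a union peak set and its promoter and distal parts. Reads were processed with PEPATAC, bowtie2 and MACS2 on mm9; the counting tool was not given in the sources used here. The 6 columns of no described sample were not used.

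CPM was each count over the library's sum in the union table. Differences were tested in R 4.3.3 with edgeR 4.0.16 (TMM, filterByExpr, quasi-likelihood test over all 6 groups, Benjamini-Hochberg adjustment over 194230 peaks), so log2 fold-changes are on the TMM scale and levels on the total-count scale. DESeq2 1.42.0, DESeq2 size factors, total-count scaling, no filter, lane as a covariate, the distal table alone, only the groups compared, the replicate block and leaving out each replicate were alternatives. Code was tested on simulated data. Members and gene lists were chosen with earlier results of these data known. Named members were the 6 of lowest ratio, the 6 of highest unstimulated level, the 4 highest and 4 lowest calls between the LPS + treatment groups, the 3 of each for (+)-JQ1 against IL-10 and for the interaction, the 2 most open of each list and the 4 largest stretches. Members on chromosome 18 were not described singly. A named member of the lineage list is not reported here. Motifs were searched in 300 bp windows of mm9, with 500 bp windows as an alternative, and genes came from GENCODE.

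Same-numbered libraries were taken to come from the same mouse (3 mice, replicate numbers in the labels). Their deviations from the group means correlated at a mean r of 0.011 (45 pairs) against -0.0056 for other pairs (90). Cultures of 3 mice are the replicates. Libraries held 12020526 to 25908198 counts in peaks, so levels near 1 CPM rest on few reads.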

Additional observations from a re-analysis of the deposited data

Results flagged for a closer look

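The LPS change differed between (+)-JQ1 and IL-10, by the interaction test of edgeR with Benjamini-Hochberg adjustment, in 26 members where it was higher with (+)-JQ1 and in 12 where it was lower. The shares were 1.81% and 0.837% of members, beside 0.985% and 1.3% of distal peaks with at least 3 CPM. Higher values were 2.02 downstream of Igf1, 1.76 near Cbx7 and 1.41 in the Tgfbr1 stretch (start 47427737), the last lost without replicate 2 or 3. Lower values were -1.30 in the Smyd3 intron, whose nearest start site is that of Kif26b, and -1.11 near Satb1. In the Abca1 stretch they were -0.99 and -0.97 in Abca1 introns whose nearest start site is that of Nipsnap3b (starts 53078521 and 53060532). The others there were -0.92 between genes, nearest to Nipsnap3b (start 53034873), and -0.86 in an Abca1 intron (start 53107723). Each of these 4 was lost without replicate 2, and those at 53078521 and 53034873 also with DESeq2.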

How the results depend on the processing

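The rule depended most on its limits and scaling: 325 members met a ratio limit of 0.3, 4159 one of 0.5, 3054 a level of 2 CPM, 667 a level of 5 CPM and 508 the rule with TMM-scaled CPM, and 1246 to 2726 met it without 1 replicate. Leaving out each replicate gave 541 to 549 members lowered by LPS with (+)-JQ1, 667 to 747 with IL-10, 56 to 121 higher and 42 to 66 lower in LPS + (+)-JQ1 than in LPS + IL-10, 16 to 49 higher and 36 to 67 lower in (+)-JQ1 than in IL-10, and 9 to 21 with an interaction. Fewer libraries enter these fits. With all replicates these counts were 656 to 726, 831 to 906, 99 to 131, 70 to 110, 50 to 101, 84 to 132 and 32 to 52; the 101 came from fitting only the groups compared, and the cause was not tested. In left-out mice, TMM moved (+)-JQ1 over unstimulated to -0.11 and IL-10 over unstimulated to -0.074, where TMM factors were 1.04 to 1.24 for unstimulated libraries.

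A fit blocked on replicate number, for the pairing by mouse, gave counts of 716, 895, 120 and 96, 65 and 97, and 26 and 13, and no named call was lost. Of 124 named calls, 83 held in all 11 alternatives, 32 were lost only when a replicate was left out, 9 were lost in another alternative, and 0 changed sign.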
